A study of Capra hircus with 10 samples.

Results

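The vascular endothelial growth factors (VEGF) and the angiopoietins, with their receptors, were examined in goat ovaries of the luteal and the follicular phase. The set holds 10 genes, chosen by symbol among the protein-coding rows of the transcript table: the ligands VEGFA, VEGFB, VEGFC and PGF, their receptors FLT1, KDR and FLT4, the ligands ANGPT1 and ANGPT2, and their receptor TEK. All 10 were in the table, with 20 of its 50146 transcripts of all kinds, among 20587 gene symbols of protein-coding transcripts. Each phase had 5 whole ovaries of the Anhui white goat, collected at a slaughterhouse, with no experimental treatment and 1 RNA library each. Age, day of the cycle and the way an ovary was assigned to its phase were not given in the sources used here. Nor did the sources say that every ovary came from a different goat, so the p-values measure the spread between these samples.

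VEGF ligands are secreted proteins that act on tyrosine kinase receptors of endothelial cells, the cells that line vessels. VEGFA signals mainly through KDR (VEGFR2), while FLT1 (VEGFR1) binds VEGFA, VEGFB and PGF and can act as a decoy, and VEGFC acts on FLT4 (VEGFR3), the receptor best known from lymphatic vessels. ANGPT1 activates TEK (TIE2) and stabilises vessels, whereas ANGPT2 often opposes it and loosens the contact between endothelium and pericytes. In the ovary these genes are known for the vessels that grow into the theca of a follicle and, after ovulation, into the corpus luteum, the gland that secretes progesterone.

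Levels are given as FPKM, a count of fragments divided by transcript length and by the size of the library, and were summed over the transcripts of a gene, so genes can be compared per length. Differences are luteal minus follicular on the log2(FPKM + 0.1) scale, which understates the change of low genes, and were tested two-sided with limma. All 15359 genes that reached an FPKM of 0.1 in 5 or more ovaries were tested, and p-values were adjusted over them by the Benjamini-Hochberg method. A gene with an adjusted p under 0.05 is referred to as called. The 10 ligands and receptors all passed the filter on low values. Read counts were not used here, and the spread between ovaries is the measure of precision.

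The phase labels were checked against cell markers. All 6 corpus luteum markers tested were higher in the luteal phase, and their summed FPKM ran from 5905 to 8076 there and from 131 to 183 in the follicular phase ovaries. STAR, which carries cholesterol into mitochondria for steroid synthesis, had a mean of 2651 FPKM in the luteal phase and of 16.6 FPKM in the follicular phase. HSD3B1, also on that list, was not analysed here. Granulosa cell markers separated the phases less clearly. Of 7 tested, 4 were lower in the luteal phase and 3 were not called. Their summed FPKM overlapped, at 97.5 to 670.5 in luteal phase and 236 to 1118 in follicular phase ovaries.

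All 10 ligands and receptors were called. In the luteal phase 7 were higher, namely VEGFA, VEGFC, ANGPT1 and the 4 receptors, and 3 were lower, namely VEGFB, PGF and ANGPT2. Over all genes tested, 43.7% were called, 15.9% as higher in the luteal phase and 27.8% as higher in the follicular phase. For 8 of the 10 the phases did not overlap, 7 with higher luteal phase values and 1 with higher follicular phase values, where 28.4% of all genes did not overlap (11.2% and 17.2% in these directions). The median log2 fold change was 0.96 over the 10 genes and -0.14 over all genes tested. Of all calls, 36.3% were higher in the luteal phase, against 48.8% with the ovaries centred on one median, 41.8% with quantile-normalized values and 52.1% with TPM. Each of the 10 genes kept its direction and its call under these 3 scalings.

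**Figure D1:**
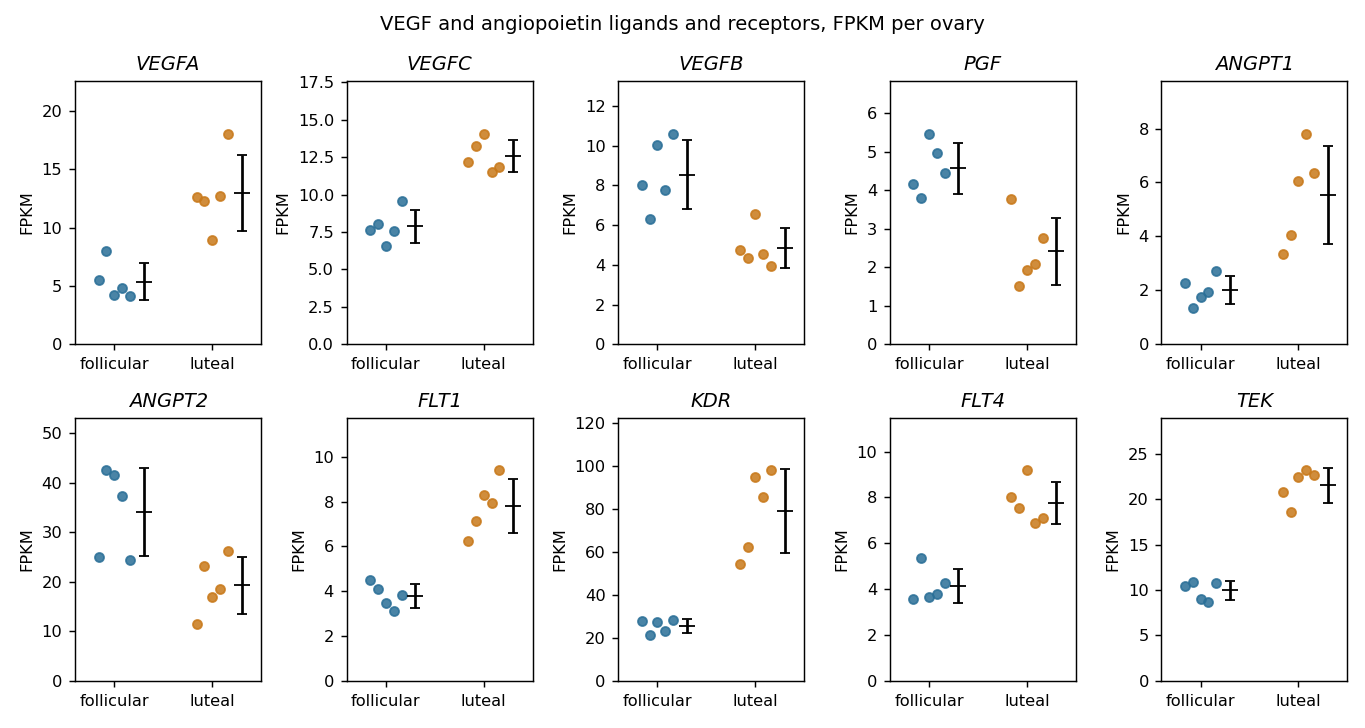
FPKM of each ligand and receptor (vertical axes, each starting at 0) in the 5 follicular phase and 5 luteal phase ovaries (horizontal axis). Points are single ovaries, and the bars give the mean and SD of a phase. The luteal phase ovaries lie above the follicular phase ovaries without overlap for VEGFA, VEGFC, ANGPT1, FLT1, KDR, FLT4 and TEK, and the phases overlap for VEGFB and ANGPT2.

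Among the ligands of the VEGF family, VEGFA and VEGFC rose in the luteal phase and VEGFB and PGF fell. VEGFA is the main growth signal for blood vessels. Its FPKM in luteal phase replicates 1 to 5 was 12.7, 12.3, 8.98, 12.7 and 18.1, and in follicular phase replicates 1 to 5 it was 5.52, 8.002, 4.23, 4.86 and 4.15. The lowest luteal phase ovary thus lay above the highest follicular phase ovary. The means were 12.9 ± 3.26 (luteal) and 5.35 ± 1.58 (follicular; SD, n = 5 each), a ratio of 2.42, with a log2 fold change of 1.27 ± 0.20 (SE; limma adjusted p = 0.000644). In a whole ovary, a change in the number of cells of a type and a change of RNA per cell cannot be told apart.

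VEGFC, the ligand of FLT4, changed less but varied less between ovaries. It was at 12.2, 13.3, 14.1, 11.5 and 11.8 FPKM in the luteal phase ovaries and at 7.63, 8.04, 6.58, 7.59 and 9.60 in the follicular phase ovaries. Again no ovary crossed into the range of the other phase. The ratio of the means was 1.59 and the log2 fold change 0.67 ± 0.10 (SE; limma adjusted p = 0.000491).

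VEGFB, a ligand of FLT1 that has little effect on vessel growth in most tissues, went the other way. In the luteal phase ovaries it was at 4.75, 4.35, 6.55, 4.57 and 3.92 FPKM, and in the follicular phase ovaries at 7.998, 6.31, 10.04, 7.79 and 10.6. Luteal phase replicate 3 was above follicular phase replicate 2, and the other 4 luteal phase ovaries were below every follicular phase ovary. The follicular phase mean was 1.77 times the luteal phase mean (log2 fold change -0.81 ± 0.17 SE, limma adjusted p = 0.00267).

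PGF, placental growth factor, also binds FLT1 and not KDR, and it had the lowest mean of these 4 ligands in each phase. Its FPKM was 3.76, 1.51, 1.94, 2.097 and 2.75 in the luteal phase ovaries and 4.16, 3.80, 5.47, 4.97 and 4.46 in the follicular phase ovaries. The phases did not overlap, but luteal phase replicate 1 lay just under the lowest follicular phase ovary. PGF had a log2 fold change of -0.95 ± 0.21 (SE; limma adjusted p = 0.00445).

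The make-up of the ligand pool is given as a description, since the shares were not tested separately. The summed FPKM of the 4 VEGF ligands was 32.7 ± 2.33 in luteal phase ovaries and 26.4 ± 1.46 in follicular phase ovaries (SD, n = 5 each). VEGFA made up 39.2 ± 7.48% of this sum in the luteal phase, against 20.4 ± 6.36% in the follicular phase. VEGFB made up 14.9 ± 3.66% against 32.3 ± 5.55%, and PGF 7.31 ± 2.43% against 17.4 ± 2.73%, so the mean shares of both ligands that bind FLT1 but not KDR were smaller in the luteal phase. VEGFC held 38.6 ± 4.84% against 29.9 ± 3.01%. The phases overlapped for the share of VEGFA, with a luteal phase minimum of 28.5% and a follicular phase maximum of 30.6%, and for that of VEGFC, at 32.4% and 33.3%.

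All 3 VEGF receptors were higher in the luteal phase. KDR, the receptor through which VEGFA drives endothelial growth and permeability, was the most abundant of the 10 genes there. It was at 54.4, 62.4, 95.1, 85.5 and 98.0 FPKM in the luteal phase ovaries and at 28.0, 21.3, 27.3, 23.3 and 28.5 in the follicular phase ovaries. Every luteal phase ovary was well above every follicular phase ovary, although luteal phase replicates 1 and 2 were lower than the other 3. The ratio of the means was 3.08 and the log2 fold change 1.59 ± 0.16 (SE; limma adjusted p = 3.43e-05).

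FLT1, which binds VEGFA tightly but signals weakly, reached 6.23, 7.15, 8.30, 7.95 and 9.40 FPKM in the luteal phase ovaries, against 4.48, 4.11, 3.46, 3.10 and 3.84 in the follicular phase ovaries. This was a log2 fold change of 1.02 ± 0.13 (SE; limma adjusted p = 0.000174). FLT4 was at 8.04, 7.55, 9.18, 6.87 and 7.11 FPKM in the luteal phase ovaries and at 3.59, 5.37, 3.67, 3.79 and 4.29 in the follicular phase ovaries. Neither receptor had overlapping phases. FLT4 had a log2 fold change of 0.90 ± 0.13 (SE; limma adjusted p = 0.000299).

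ANGPT1 and ANGPT2 changed in opposite directions, and their levels lay closer together in the luteal phase. ANGPT1, the activating ligand, had an FPKM of 3.36, 4.06, 6.06, 7.81 and 6.36 in the luteal phase ovaries and of 2.26, 1.36, 1.74, 1.93 and 2.73 in the follicular phase ovaries. No follicular phase ovary reached the lowest luteal phase ovary, and the log2 fold change was 1.39 ± 0.24 (SE; limma adjusted p = 0.00104). ANGPT2, the context-dependent antagonist, was at 11.4, 23.1, 17.0, 18.5 and 26.2 FPKM in the luteal phase ovaries and at 24.9, 42.5, 41.5, 37.2 and 24.4 in the follicular phase ovaries. The phases overlapped, since luteal phase replicate 5 lay above follicular phase replicates 1 and 5. ANGPT2 had a log2 fold change of -0.84 ± 0.23 (SE; limma adjusted p = 0.0135), the highest adjusted p of the 10 genes. In the goat assembly ARS1.2 the gene lies inside the span of MCPH1. MCPH1 averaged 3.44 FPKM in luteal phase and 4.48 FPKM in follicular phase ovaries (limma adjusted p = 0.132), below ANGPT2 in level.

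TEK, the receptor of ANGPT1 and ANGPT2, had the smallest spread within a phase and the lowest adjusted p of the 10 genes. Its FPKM was 20.8, 18.5, 22.4, 23.2 and 22.6 in the luteal phase ovaries and 10.4, 10.9, 9.04, 8.63 and 10.8 in the follicular phase ovaries. All luteal phase ovaries were thus well above the follicular phase range. In the assembly ARS1.2 an end of TEK overlaps the lncRNA gene LOC106502388, whose level was not analysed here. The ratio of the means was 2.16 and the log2 fold change 1.10 ± 0.09 (SE; limma adjusted p = 7.60e-06).

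**Figure D2:**
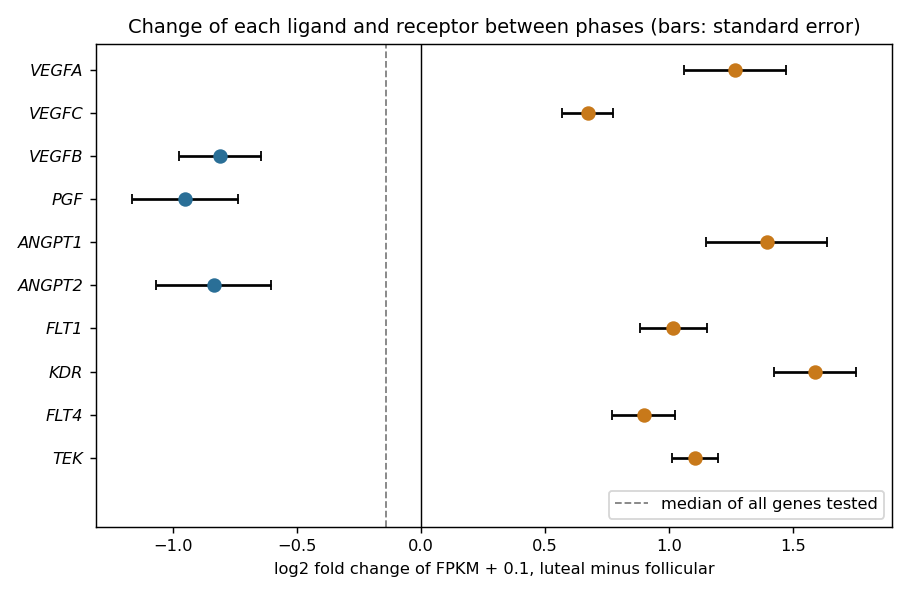
Log2 fold change of FPKM + 0.1, luteal minus follicular (horizontal axis), of each ligand and receptor (vertical axis), with its standard error from limma. VEGFB, PGF and ANGPT2 lie between -0.95 and -0.81, the other 7 genes lie between 0.67 and 1.59, and the dashed line marks the median of all genes tested at -0.14.

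The order of the levels differed between the phases. In the luteal phase KDR stood first, at 79.1 ± 19.6 FPKM, and did not overlap with the next gene, TEK, at 21.5 ± 1.89. TEK, ANGPT2 and VEGFA overlapped in turn, as did VEGFA with VEGFC, at 12.6 ± 1.07, and VEGFC lay above FLT1 without overlap. FLT1, FLT4, ANGPT1 and VEGFB followed, each overlapping with the next, and PGF came last at 2.41 ± 0.876, below the range of VEGFB. In the follicular phase ANGPT2 stood first, at 34.1 ± 8.85, above KDR, at 25.7 ± 3.20, in 3 of 5 ovaries. Below them TEK was apart from KDR, and TEK, VEGFB, VEGFC, VEGFA, PGF, FLT4 and FLT1 each overlapped with the next. ANGPT1 was last there, at 2.00 ± 0.521. By mean level over the 10 ovaries KDR was above 92.1% and ANGPT2 above 83.3% of all genes tested, while PGF, the lowest, was above 35.0%.

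The genes also differed in how far ovaries of a phase spread. The within-phase SD on the log2 scale was 0.43 for ANGPT1, 0.43 for ANGPT2, 0.37 for PGF and 0.37 for VEGFA, and it was lowest for TEK at 0.14 and VEGFC at 0.16. The median over all genes tested was 0.23. Among the receptors only KDR, at 0.30, was above that median, and among the ligands only VEGFC was below it.

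The ratio of ANGPT2 to ANGPT1 in each ovary was compared because both ligands bind TEK. ANGPT4, the remaining angiopoietin, is not part of this ratio. It averaged 4.38 FPKM in luteal phase and 7.97 FPKM in follicular phase ovaries, so the ratio does not describe all angiopoietins. ANGPT2 exceeded ANGPT1 in every ovary, and the mean ratio was 3.68 ± 1.31 in luteal phase ovaries and 18.9 ± 9.22 in follicular phase ovaries (SD, n = 5 each). On the log2 scale the ratio of FPKM + 0.1 was 1.73, 2.48, 1.47, 1.23 and 2.03 in luteal phase replicates 1 to 5 and 3.41, 4.87, 4.50, 4.20 and 3.11 in follicular phase replicates 1 to 5. The phases did not overlap. Luteal minus follicular, the mean log2 ratios differed by -2.23 (two-sided exact permutation test, p = 0.00794, the smallest that 5 against 5 ovaries allow). The test uses the same values as the calls of ANGPT1 and ANGPT2, which went in opposite directions, and so adds no separate support.

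KDR and FLT1 share VEGFA as ligand, and KDR was the more abundant in every ovary, with a mean ratio to FLT1 of 10.02 ± 1.23 in luteal phase ovaries and 6.85 ± 1.11 in follicular phase ovaries (SD, n = 5 each). The log2 ratio of FLT1 to KDR ran from -3.50 to -3.11 among the luteal phase ovaries and from -2.95 to -2.35 among the follicular phase ovaries. FLT1 was thus lower relative to KDR in all 5 luteal phase ovaries than in any follicular phase ovary. The mean log2 ratios differed by -0.57 (two-sided exact permutation test, p = 0.00794, again the smallest possible).

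**Figure D3:**
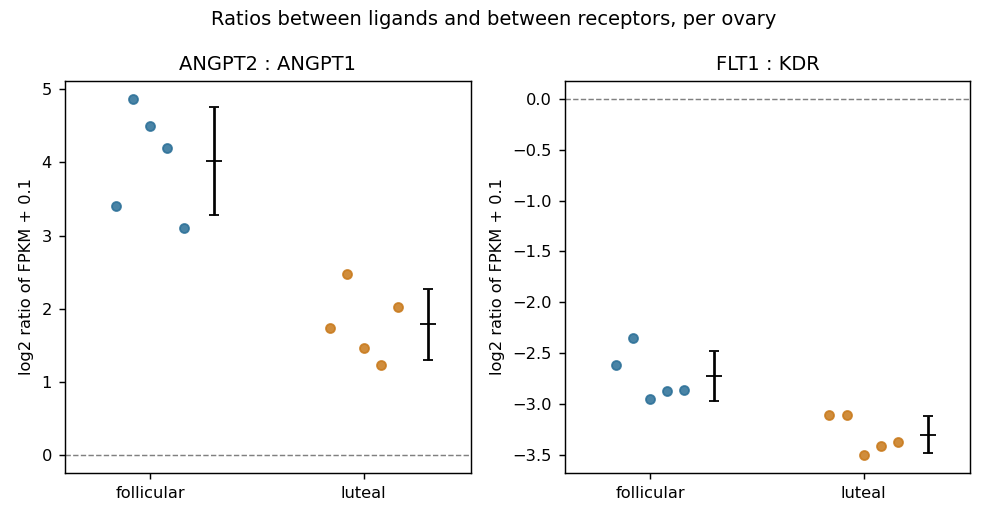
Log2 ratio of FPKM + 0.1 (vertical axes) of ANGPT2 to ANGPT1 on the left and of FLT1 to KDR on the right, by phase (horizontal axes). Points are single ovaries, bars give the mean and SD of a phase and the dashed line marks a ratio of 1. The 5 luteal phase ovaries lie below the 5 follicular phase ovaries in both panels.

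The receptors are made mostly by endothelium, so markers of that cell type were set beside them. Of 10 endothelial markers 9 were called as higher in the luteal phase and 0 as lower, with a median log2 fold change of 0.97. CDH5, the cadherin of endothelial junctions, averaged 23.7 ± 2.65 FPKM in luteal phase ovaries and 8.87 ± 0.812 in follicular phase ovaries, and PECAM1, a surface protein of endothelium, 53.9 ± 9.55 and 26.4 ± 3.42 (SD, n = 5 each). CLDN5, a tight junction protein of endothelium, was the marker that was not called (log2 fold change -0.24 ± 0.11 SE, limma adjusted p = 0.0993). The summed FPKM of the list ran from 225 to 287 in the luteal phase ovaries and from 147 to 180 in the follicular phase ovaries.

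Each receptor was then expressed relative to the mean log2 value of these 10 markers in the same ovary, which itself was 0.88 higher in the luteal phase. KDR exceeded this mean by 1.45, 1.94, 2.23, 2.12 and 2.12 in luteal phase replicates 1 to 5 and by 1.35, 1.15, 1.17, 1.27 and 1.38 in follicular phase replicates 1 to 5, with no overlap. The difference was 0.71 (two-sided exact permutation test, p = 0.00794). With the median of the markers in place of the mean it was 0.48 (exact permutation p = 0.0635), so this call depends on how the markers are summarised. The log2 fold change of KDR, 1.59 ± 0.16 (SE), was the largest beside those of the 10 markers. ESAM, at 1.52 ± 0.19, lay within that standard error, and CDH5 was at 1.41 ± 0.09. KDR was not tested against single markers.

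For the other 3 receptors the phases overlapped on this relative scale. TEK differed by 0.22 (exact permutation p = 0.0635), and without follicular phase replicate 2 by 0.29 (exact permutation p = 0.00794). With the median of the markers the difference for TEK was -0.00694 (exact permutation p = 0.960). FLT1 differed by 0.13 (exact permutation p = 0.349) and FLT4 by 0.013 (exact permutation p = 0.944). With a pseudocount of 1 and all 10 ovaries the difference for TEK was 0.24 (exact permutation p = 0.0317), so its side of the threshold depends on the setting. A change of FLT1 or FLT4 beyond that of the marker mean was not detected, which does not show that there is none. These p-values are not adjusted for one another.

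**Figure D4:**
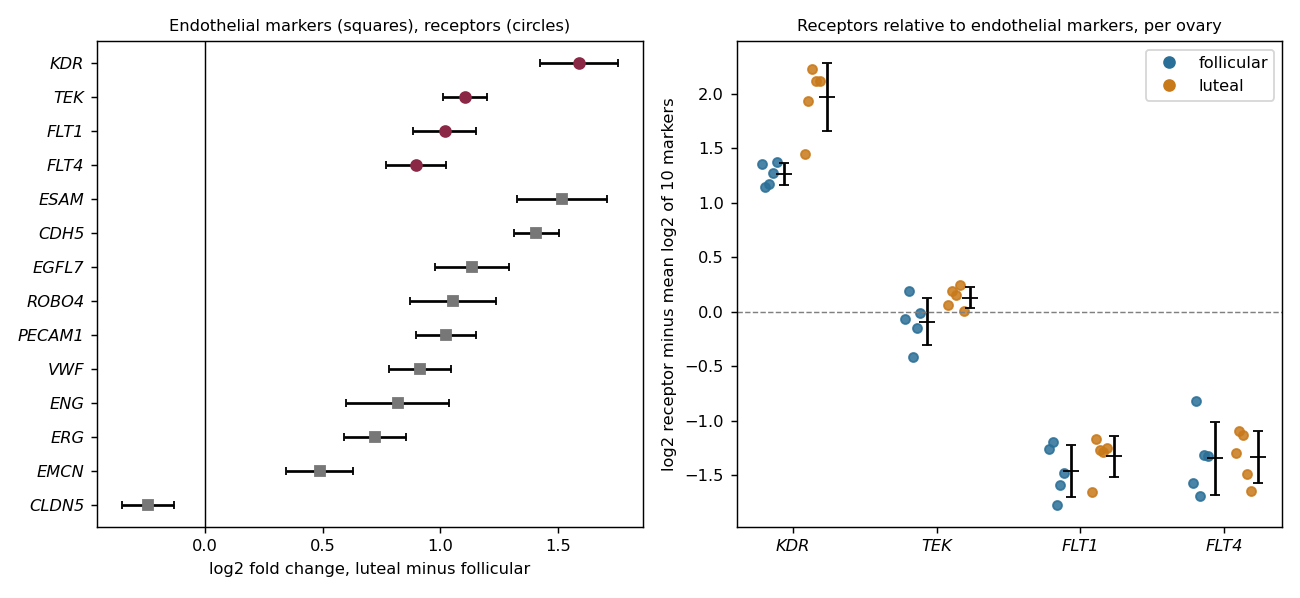
Left, log2 fold change, luteal minus follicular (horizontal axis), with standard error, of 10 endothelial markers (squares) and the 4 receptors (circles). Right, log2 value of each receptor minus the mean log2 value of the 10 markers (vertical axis) in single ovaries, with the mean and SD of a phase. KDR changed by 1.59, with the marker ESAM, at 1.52, within its standard error, and it is the receptor whose phases do not overlap on the right.

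FLT4 and VEGFC are best known from lymphatic vessels, and 3 of 6 lymphatic markers were higher in the luteal phase. The summed list ran from 251 to 354 FPKM in the luteal phase ovaries and from 160 to 219 in the follicular phase ovaries. CCL21, a chemokine that lymphatic endothelium secretes, averaged 152 ± 22.0 FPKM in luteal phase ovaries and 53.5 ± 8.17 in follicular phase ovaries, and LYVE1, a hyaluronan receptor of lymphatic vessels, 35.1 ± 1.13 and 16.5 ± 2.25 (SD, n = 5 each). PDPN, a surface protein of lymphatic endothelium, was also higher, while MMRN1 was lower (log2 fold change -0.69, limma adjusted p = 0.00585). PROX1, the transcription factor that defines lymphatic endothelium, averaged 2.40 ± 0.576 and 1.92 ± 0.288 and was not called (limma adjusted p = 0.170).

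ANGPT1 is known from pericytes and smooth muscle, where 5 of 8 markers were higher in the luteal phase, namely PDGFRB, MCAM, CSPG4, KCNJ8 and RGS5. Lower were 2, ACTA2 and MYH11, which are contractile proteins of smooth muscle. The summed list, in which ACTA2 is the most abundant, was lower in the luteal phase, at 447 to 623 FPKM against 664 to 790. The part of lymphatic cells, pericytes and smooth muscle in the change of FLT4, VEGFC and ANGPT1 was not tested.

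At the level of single transcripts, 12 of the 20 were called over the 32842 transcripts tested, 9 as higher in the luteal phase and 3 as higher in the follicular phase. Without luteal phase replicate 3 there were 14, of which 5 were higher in the follicular phase (2 of these are low VEGFB transcripts that passed the filter on low values only through that phase), and leaving out other single ovaries gave 10 to 12. Over all transcripts 17.3% were called, 7.47% in the first and 9.82% in the second direction. For 9 of the 20 the phases did not overlap, 7 with higher luteal phase and 2 with higher follicular phase values, where 15.3% of all transcripts did not overlap (6.63% and 8.62% in these directions). VEGFC (XM_018042109.1), FLT1 (XM_018056600.1), KDR (XM_005681629.3), ANGPT1 (XM_005689163.3) and ANGPT2 (XM_013975359.2) each had a single transcript. For ANGPT2 the call at this level was narrow (limma adjusted p = 0.0404) and was lost in several settings, with an adjusted p of 0.0944 after centring on one median. The other 15 transcripts belong to VEGFA, VEGFB, PGF, FLT4 and TEK. The authors' quantification divides fragments among transcripts that share exons, so single transcripts are less certain than their sum.

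VEGFA makes proteins of different lengths by splicing, which differ in how tightly they bind the matrix. The table lists 4 of its transcripts, and RefSeq gives VEGFA165 and VEGFA189 as synonyms of the gene without saying which transcript makes which. NM_001287035.1 was the most abundant, at 7.91, 8.12, 4.85, 8.09 and 11.1 FPKM in the luteal phase ovaries against 2.50, 4.30, 1.69, 3.30 and 1.13 in the follicular phase ovaries (log2 fold change 1.69, limma adjusted p = 0.00799). XM_018038497.1 was at 2.68, 2.82, 2.36, 3.92 and 4.74 against 1.20, 1.80, 1.01, 0.643 and 1.29 (log2 fold change 1.42, limma adjusted p = 0.00694). Both transcripts rose without overlap of the phases. NM_001287034.1, at 0.511 to 1.76 in luteal phase ovaries and 0.493 to 1.26 in follicular phase ovaries, was not called (limma adjusted p = 0.709). XM_018038496.1 was listed at 0 in luteal phase replicate 3 and reached 1.32 in luteal phase replicate 1, while the follicular phase ovaries ran from 0.415 to 1.10 (limma adjusted p = 0.316).

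Whether a transcript changed relative to its gene was tested with limma on the log2 ratio of transcript to gene. Over the 20284 such ratios, of genes with several transcripts, 0.774% were called, 0.286% as higher in the luteal phase and 0.488% as higher in the follicular phase. Of the 15 transcripts 0 were called, and 2, both of VEGFA, had an unadjusted p under 0.05. On simulated data this fit recovered 35% of 2-fold changes, so a change of a share can have been missed. XM_018038496.1 held 3.11% of VEGFA in luteal phase ovaries and 11.5% in follicular phase ovaries, and its log2 ratio changed by -2.36 (limma adjusted p = 0.153, or 0.117 with no filter on low values, which it passed through the follicular phase, with 3 of 5 luteal phase ovaries above 0.1 FPKM). With a pseudocount of 1, and without luteal phase replicate 1, the ratio of XM_018038496.1 was called. Because of how this transcript passed the filter, these calls are not read as support. NM_001287034.1 held 9.88% against 19.2% (limma adjusted p = 0.408). NM_001287035.1 held 61.5% against 46.9%, a difference that was not called (limma adjusted p = 0.444).

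**Figure D5:**
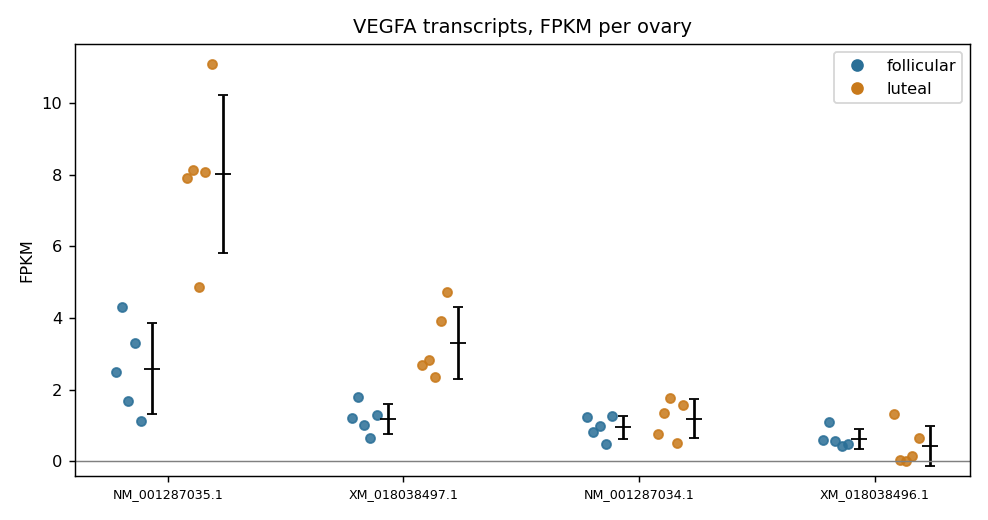
FPKM (vertical axis) of the 4 VEGFA transcripts (horizontal axis) in single ovaries of each phase, with the mean and SD. NM_001287035.1 and XM_018038497.1 lie higher in the 5 luteal phase ovaries than in any follicular phase ovary, and the phases overlap for the other transcripts.

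TEK has 3 transcripts in the table. XM_005683591.3 ran from 5.13 to 17.3 FPKM among luteal phase ovaries and from 3.97 to 5.41 among follicular phase ovaries, and XM_005683592.3 from 5.87 to 11.3 and from 3.22 to 6.23. Both overlapped between the phases and were called as higher in the luteal phase (limma adjusted p = 0.0251 and 0.0357). Leaving out single ovaries ended these calls in several cases, with adjusted p-values from limma of up to 0.0585 and 0.0813 without luteal phase replicate 5. The call of XM_005683592.3 was also lost with no filter on low values (limma adjusted p = 0.0512) and with eBayes without trend (0.0506). The remaining transcript, XM_018051890.1, was at most 1.13 in every ovary except luteal phase replicate 3, where it was at 9.54 and held 42.5% of TEK. The sum over the transcripts in that ovary, 22.4, was like that of the other luteal phase ovaries.

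Of the 2 FLT4 transcripts, XM_018051629.1 was called, at 2.95 to 5.50 FPKM in luteal phase ovaries and 1.28 to 2.37 in follicular phase ovaries (log2 fold change 1.03, limma adjusted p = 0.0125). XM_018051628.1 overlapped between the phases and was not called (limma adjusted p = 0.147). For PGF the more abundant transcript, XM_005686089.3, was lower in the luteal phase (log2 fold change -1.04, limma adjusted p = 0.0174), and XM_005686088.3 was not called (adjusted p = 0.302).

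For VEGFB, XM_018042785.1 was lower in the luteal phase, at 1.93 to 2.74 FPKM against 3.46 to 5.92 (log2 fold change -0.84, limma adjusted p = 0.0144, or 0.0558 with a replicate block). The other 3 VEGFB transcripts were not called. XM_018042786.1 had an adjusted p of 0.0699 in limma, which was 0.0300 without follicular phase replicate 2 and 0.0223 without luteal phase replicate 3. XM_018042787.1 was at 0.281 and 0.611 FPKM in luteal phase replicates 1 and 3 and at or near 0 in the other luteal phase ovaries, against 0.298 to 0.937 in the follicular phase ovaries. XR_001917456.1, typed as protein-coding in the table although its accession has the form of a non-coding RNA, was at 0.287 and 0.285 in the same luteal phase replicates and at most 0.0165 in the others, against 0.279 to 0.419 in the follicular phase ovaries. Both passed the filter of 0.1 FPKM in 5 ovaries only through the phase in which they were higher. They were tested and are part of the counts, but for this reason their tests are not read as support and only their values are given.

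Other genes of the pathway were taken from lists of co-receptors, signalling, oxygen sensing, hypoxia targets and other vessel growth factors. Together 74 of the 79 listed genes were tested, of which 19 were called as higher in the luteal phase and 16 as higher in the follicular phase. With TPM these numbers were 21 and 9, and with the highest transcript of each gene alone 18 and 10. Their median log2 fold change was 0.0062. The called share was 47.3%, near the 43.7% of all genes.

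Of 10 co-receptors and modulators 5 were higher in the luteal phase, 2 were lower and 3 were not called, with a median log2 fold change of 0.25. PTPRB, a phosphatase that dampens TEK, averaged 19.7 ± 4.72 FPKM in luteal phase ovaries and 9.09 ± 0.718 in follicular phase ovaries (SD, n = 5 each), which is a log2 fold change of 1.08 (limma adjusted p = 0.000200). TIE1, the partner of TEK, rose by 0.99 (limma adjusted p = 0.000688). The neuropilins, which hold VEGF for its receptors, moved in opposite directions. NRP1 rose by 0.66 (limma adjusted p = 0.00218), and NRP2, the neuropilin better known from lymphatic vessels, changed by -0.76 (limma adjusted p = 0.00212). ANGPT4, the remaining angiopoietin, averaged 4.38 ± 0.565 FPKM against 7.97 ± 1.08 (limma adjusted p = 0.000371), so like ANGPT2 it was lower in the luteal phase. VEGFD, the other ligand of FLT4, averaged 0.591 ± 0.241 against 0.602 ± 0.171 and was not called (limma adjusted p = 0.890).

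Of 29 signalling and response genes 4 were higher in the luteal phase, 10 were lower and 15 were not called, with a median log2 fold change of -0.04. With TPM the lower genes were 6, and with a filter of 0.5 FPKM, which GRB7 does not pass, they were 9. Those that rose most were ESM1, an endothelial proteoglycan known as a response gene of VEGF, RCAN1, an inhibitor of calcineurin that VEGF induces, and PRKCB, a protein kinase C. ESM1 averaged 24.1 ± 11.03 FPKM in luteal phase ovaries and 3.09 ± 1.20 in follicular phase ovaries (SD, n = 5 each), which is a log2 fold change of 2.88 (limma adjusted p = 0.000106). RCAN1 rose by 2.12 on that scale (limma adjusted p = 0.000670) and PRKCB by 1.54 (limma adjusted p = 5.61e-05). NOS3, the endothelial nitric oxide synthase, was also higher, at 5.65 ± 0.988 FPKM against 2.72 ± 0.333. The adaptor GRB7 was lower, at means of 0.0678 and 0.216 FPKM, but it passed the filter through the follicular phase ovaries, where it was at 0.101 or more, and its luteal phase median was 0.0642. Also lower were the small heat shock protein HSPB1 (log2 fold change -0.70, limma adjusted p = 0.00111) and the protein kinase PRKCA (log2 fold change -0.67, adjusted p = 0.000934). The Notch ligand DLL4, another response gene of VEGF, was not called.

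VEGFA is a classic target of the hypoxia-inducible factors. Of 10 oxygen sensing genes tested 3 were higher in the luteal phase and 0 lower. EPAS1, the factor HIF2A that endothelium expresses, averaged 49.5 ± 9.32 FPKM in luteal phase ovaries and 17.5 ± 1.90 in follicular phase ovaries (SD, n = 5 each), which is a log2 fold change of 1.48 (limma adjusted p = 9.99e-06). HIF1A, at 144 ± 37.6 and 94.4 ± 21.4 FPKM, rose by 0.60 (limma adjusted p = 0.0252), and RBX1, a ubiquitin ligase subunit, by 0.28 (limma adjusted p = 0.0187). The call of HIF1A was lost without follicular phase replicate 3 or 5 or luteal phase replicate 1 or 2, with a limma adjusted p of up to 0.0580, and that of RBX1 with quantile-normalized values (limma adjusted p = 0.0517). EGLN1, a hydroxylase that marks the factors for decay, was called as lower with quantile-normalized values and without luteal phase replicate 3 or 5. ELOB and ELOC were not analysed here.

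Among 12 hypoxia-response targets 2 rose, PGK1 and PDK1, which act in glucose metabolism, 1 fell, BNIP3, which acts in mitophagy, and 9 were not called. PGK1 had a log2 fold change of 0.82 (limma adjusted p = 0.000837), PDK1 of 0.47 (limma adjusted p = 0.0102) and BNIP3 of -0.26 (limma adjusted p = 0.0394). The call of BNIP3 was lost in 13 of 20 alternatives, with adjusted p-values from limma of 0.153 after centring on one median, 0.222 with TPM and 0.0540 with quantile-normalized values. With TPM 4 targets were called as higher and 0 as lower, with NDRG1 and LDHA beside PGK1 and PDK1, and after centring on one median 3 and 0, with NDRG1 beside them. CA9, a carbonic anhydrase that is a classic target of hypoxia, averaged 0.919 ± 0.166 FPKM in luteal phase ovaries and 1.19 ± 0.249 in follicular phase ovaries (limma adjusted p = 0.145), and ADM 33.2 ± 7.93 and 36.9 ± 10.6 (limma adjusted p = 0.581). The list as a whole had a median log2 fold change of 0.05.

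Among other growth factors and inhibitors 5 of 13 tested were higher in the luteal phase and 3 were lower. SERPINF1, a secreted inhibitor of vessel growth, averaged 66.3 ± 17.2 FPKM in luteal phase ovaries and 7.93 ± 3.12 in follicular phase ovaries (SD, n = 5 each), which is a log2 fold change of 3.10 (limma adjusted p = 1.31e-05). PDGFB, the signal by which endothelium recruits pericytes, rose by 1.29 (limma adjusted p = 0.000122) and PDGFA by 0.88 (limma adjusted p = 0.000921). FGFR1, VASH2 and FGF1 were lower, with log2 fold changes of -0.71, -0.61 and -0.59. The call of VASH2 was lost in 9 of 20 alternatives, among them 6 that left out 1 ovary (follicular phase replicate 3, 4 or 5, or luteal phase replicate 3, 4 or 5), with a limma adjusted p of up to 0.0833. That of FGF1 was lost with TPM and with the highest transcript alone (limma adjusted p of up to 0.0997). PROK1, a vessel growth factor of endocrine glands, was below the filter, as were its receptors PROKR1 and PROKR2.

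Lists of markers of other ovarian cells differed in how they changed between the phases. Over all genes tested, 15.9% were called as higher in the luteal phase and 27.8% as higher in the follicular phase. Granulosa cell markers were lower in the luteal phase for 4 of 7 and not called for 3, with sums of 97.5 to 670.5 FPKM against 236 to 1118. Both theca markers were lower, with sums of 17.1 to 69.2 against 139 to 202, and so were 5 of 7 oocyte markers, with sums of 8.34 to 19.4 against 16.2 to 46.0. Among these oocyte markers NOBOX passed the filter only through the follicular phase, and its luteal phase median was 0.101 FPKM. Of 7 stroma markers 2 were higher, COL1A2 and LUM, and 2 lower, TCF21 and NR2F2, with sums of 1967 to 3525 and 1773 to 2499. Of 5 leucocyte markers 1 was higher, CSF1R, with sums of 39.9 to 51.2 against 20.8 to 59.4, and without follicular phase replicate 5 there were 2. AHSP was the red blood cell marker that passed the filter and was not called, and the summed list stayed at or below 0.758 in every ovary. CD163 and HBB were not analysed here. The part of each of these cell types in the change of the ligands was not tested.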

How the data were processed

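One ribosomal RNA-depleted, strand-specific library with paired ends was sequenced from each of 10 ovaries. Reads were aligned by the authors (HISAT2), transcripts were assembled (StringTie), and Cuffdiff gave the deposited FPKM of each transcript and ovary, without pooling. The genome build is not given in the sources used here, so no coordinates are printed. The deposited tables of mRNA and of annotated lncRNA repeat rows of the transcript table and were not used. Table columns were matched to ovaries by phase and number.

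The table gives no read counts, and the absolute depth of each ovary was not used here. The steps between low values of single-transcript genes gave rough depths, relative to follicular phase replicate 1, of 0.674 to 1.02 for the other follicular phase ovaries and 0.664 to 0.763 for the luteal phase ovaries, from peaks of 26 to 46 genes.

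FPKM of protein-coding transcripts were summed by symbol. Values of log2(FPKM + 0.1) were fitted with limma 3.58.1 (lmFit, eBayes with trend, R 4.3.3) over all genes, transcripts or transcript-to-gene ratios, and the code was tested on simulated data. The study's own test needs alignments. Ratios and receptor values were compared by exact permutation of the ovaries (Python 3.11.15, numpy 2.4.6).

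The genes, lists and tests were chosen with earlier results of these data known. All 10 ligands and receptors and their transcripts are described. Of each pathway list up to 3 called genes per direction with the largest change are named, and VEGFD, NOS3, DLL4, EGLN1, NDRG1, LDHA, CA9, ADM, MCPH1 and the single cell markers were named after their values were seen. Genes with the profiles nearest to a ligand or receptor are named by rule too. Some genes are not reported here. LDHA, CYP11A1 and CYP17A1 were found through RefSeq synonyms. The alternatives changed the pseudocount (1 or 0.01), the filter (none, or 0.5 FPKM), the scaling (one median, TPM or quantiles), the eBayes trend, the transcript choice (highest alone), the marker summary (median), the block (replicate number) and the ovaries (each left out once).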

Additional observations from a re-analysis of the deposited data

Results flagged for a closer look

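Dixon's ratio, the gap of the highest or lowest ovary to its neighbour divided by the range of its phase, was computed in 62 groups of 5 ovaries over the genes, the transcripts of genes with several and the ratios. It passed the 95% critical value of 0.71 in 6 of them, and chance flags about 1 in 20 groups. None of the gene sums was among them. The TEK transcript XM_018051890.1 stood at 9.54 in luteal phase replicate 3, where the other luteal phase ovaries ran from 0 to 1.13. The VEGFA transcript XM_018038496.1 was at 1.10 in follicular phase replicate 2, against 0.415 to 0.593 in the others. The VEGFB transcript XM_018042786.1 was at 3.06 in luteal phase replicate 3, above the others at 1.61 to 1.99, and at 2.20 in follicular phase replicate 2, below the others at 3.21 to 3.53. The VEGFB transcript XM_018042787.1 was at 0.937 in follicular phase replicate 5, against 0.298 to 0.409. FLT1 relative to the endothelial markers was at -1.66 in luteal phase replicate 1, where the other luteal phase ovaries ran from -1.29 to -1.17.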

How the results depend on the processing

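Each of the 10 genes was called in the same direction under all 20 alternatives run on it, the replicate block included, and the highest adjusted p from limma was 0.0342, for ANGPT2 without follicular phase replicate 3. Equal replicate numbers share only a number: their deviations correlated at 0.03 to 0.20, and for 2 of 5 numbers the ovary of the same number correlated best. With the replicate block 7020 genes were called, against 6711 without it, and 7 of 7 granulosa cell markers, against 4. With the highest transcript alone, 5 of the other growth factors and inhibitors were called, against 8. The block ended the call of the VEGFB transcript XM_018042785.1 (adjusted p = 0.0558 in limma) and of VASH2. Under pairing by that number the ratio of ANGPT2 to ANGPT1 (-2.23), that of FLT1 to KDR (-0.57) and KDR relative to the endothelial markers (0.71) had an exact sign-flip p of 0.0625, the smallest that 5 pairs allow. With the median of the markers the relative difference was 0.48 for KDR, -0.094 for FLT1, -0.215 for FLT4 and -0.00694 for TEK, and with a pseudocount of 1 it was -0.029 for FLT4 and 0.24 for TEK, the last past the threshold (exact permutation p = 0.0317). Leaving out single ovaries gave -0.072 to 0.14 for FLT4 and 0.14 to 0.29 for TEK. The causes were not tested. Of the transcript-to-gene ratios 1 was called with a pseudocount of 1, and 0 to 1 when single ovaries were left out. The called ratio was that of XM_018038496.1 to VEGFA. This transcript passed the filter only through the follicular phase, where its mean was higher, so these calls are not read as support. The ratio of XM_018038497.1 to VEGFA changed by -0.17 with a pseudocount of 1 and by -0.0027 to 0.28 without single ovaries. VEGFD, not called in any setting, changed sign with one median (0.037), TPM (0.037) and quantiles (0.081) and ran from -0.23 to 0.075 without single ovaries, and AHSP did so with a pseudocount of 0.01 (-0.031). The table gives no read counts, and the counting error of low transcripts was not set beside the spread between ovaries.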

Other observations

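The genes whose centred log2 profile over the 10 ovaries lay nearest to a ligand or receptor, by root-mean-square distance among all genes tested, were listed by a fixed rule. For KDR they were FRZB, PCDH12 and P4HTM, at distances of 0.16 each. For TEK they were P2RX4, MICU2 and ECSCR, at 0.093, 0.10 and 0.11, and for FLT1 they were PTPRM, LHX6 and PPP1R9A, at 0.096, 0.11 and 0.13. The profile of ANGPT1 was nearest to FRZB and P4HTM, which are also on the list of KDR, and to PTPRR, at 0.21 to 0.23. Among the nearest to VEGFA were ECE1, at 0.18, and MPV17L2, at 0.19. ANGPT2 was nearest to RPP21, PLPPR1 and LOC102173668, at 0.22 to 0.26. Among the 10 ligands and receptors themselves, TEK and FLT1 were the nearest pair for each other, at 0.14, and VEGFB was the nearest to ANGPT2, at 0.55. Distances favour genes whose phase difference is of like size, and they are given as a description.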
